A study of Mus musculus with 17 samples.

Results

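H2-Aa, Cd74 and Ctss code for 3 proteins of the MHC class II pathway, and their transcripts were followed in azoxymethane-treated mouse colon by genotype and stage. The 3 genes were taken by symbol, and all 3 were present in each of the 17 libraries, out of 988 genes on the panel. Counts came from a targeted amplicon panel, so a level can be compared between libraries for 1 gene but not between genes. There were 6 colon tumors from Kit-B6 mice, described in the labels as C57BL/6, and 6 from Kit-W/sh mice, whose background is given as W-SASH. These tumors were from week 32 of age, after 6 intraperitoneal doses of azoxymethane in 6 weeks and a further 18 weeks. Preneoplastic colon, 3 Kit-B6 and 2 Kit-W/sh samples, was from week 14, after 3 doses in 3 weeks and 3 more weeks. All 4 groups therefore received the carcinogen, and no group without it is compared here. The W-sash allele is an inversion upstream of Kit that leaves adult mice short of mast cells.

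MHC class II molecules carry peptides from engulfed proteins to the surface of antigen-presenting cells, where CD4 T cells read them. H2-Aa makes the alpha chain of I-A, the class II molecule of C57BL/6 mice. Cd74, the invariant chain, fills the groove of new class II dimers and guides them to endosomes, and cathepsin S (Ctss) cuts the last part of Cd74 away so that peptide can bind. Dendritic cells, macrophages and B cells make these proteins all the time. Interferon gamma induces them in other cells, including colon epithelium, and for H2-Aa and Cd74 this runs through the coactivator Ciita.

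The 250 bases before the start are shown for H2-Aa and Ctss, the members with an entry, and for H2-Eb1, the only other measured pathway gene whose window held an X box and then a Y box. They are from RefSeq (GRCm38.p6), which held a promoter for 9 of the 14 measured pathway genes when matched by symbol, and H2-Ab1, Cd74, Ciita, Rfxap and Cd83 had no entry. Capitals in the first 2 mark an X box, searched as CTNGNAAC, and a Y box, searched as GATTGG. X and Y boxes are where RFX factors and NF-Y bind, and together they hold Ciita. Capitals in the third mark an interferon-stimulated response element (ISRE), searched as GAAA, any 2 bases and GAAA again. Both strands were searched, no marked matches overlapped, and the letters of the X box were set after these sequences had been read.
H2-Aa (chr17:34287824-34288073, minus strand): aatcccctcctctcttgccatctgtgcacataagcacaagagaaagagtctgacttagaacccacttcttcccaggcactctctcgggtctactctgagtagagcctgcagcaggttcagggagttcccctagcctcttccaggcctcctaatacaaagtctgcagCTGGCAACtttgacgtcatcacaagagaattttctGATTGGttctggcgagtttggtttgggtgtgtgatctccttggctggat
H2-Eb1 (chr17:34305617-34305866, plus strand): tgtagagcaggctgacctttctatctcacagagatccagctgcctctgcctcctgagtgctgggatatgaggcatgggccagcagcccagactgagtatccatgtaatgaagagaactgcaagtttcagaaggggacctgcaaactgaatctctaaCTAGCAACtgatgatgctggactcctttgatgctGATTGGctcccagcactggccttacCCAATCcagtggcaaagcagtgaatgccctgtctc
Ctss (chr3:95526536-95526785, plus strand): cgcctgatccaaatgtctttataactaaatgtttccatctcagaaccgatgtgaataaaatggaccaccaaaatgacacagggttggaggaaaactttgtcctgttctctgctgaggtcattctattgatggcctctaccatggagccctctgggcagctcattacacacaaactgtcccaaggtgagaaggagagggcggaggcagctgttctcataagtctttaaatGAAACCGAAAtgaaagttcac
The X box began 84 bases before the H2-Aa start and 94 before that of H2-Eb1, and the Y box 49 and 60 bases before. The last capitals of H2-Eb1, CCAATC, are a Y box on the other strand, which began 35 bases before the start. Among 32851 promoters of the same length in the table, 10.9% held the X box letters, 14.6% the Y box letters and 2.98% the ISRE letters. An X box followed by a Y box on the same strand after 10 to 30 bases was in 30 of them (0.0913%), H2-Aa and H2-Eb1 included. The other 3 chain genes with an entry lacked that pair: the letters of both boxes were in the H2-Eb2 window without the spacing, and H2-DMa and H2-Oa had the Y box only. In the Ctss window no X or Y box letters matched, and the ISRE letters began 21 bases before the start. A match shows letters only and not binding. The X box letters were set with these sequences known, so the percentages do not test their matches.

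The libraries held 616009 to 1399902 counts each, and those of preneoplastic colon at most 815973. Levels are CPM, counts put on a common library total after scaling between libraries, and depth was ample for the 3 genes, at 750 to 13685 counts a library. The Kit transcript ranged from 93.7 to 473 CPM among Kit-B6 tumors and from 48.9 to 258 CPM among those of Kit-W/sh mice, and preneoplastic levels were 268 to 521 and 113 to 127 CPM. The inversion leaves the Kit coding sequence in place, so this amplicon does not test the genotype. Against its label, the library labelled Kit-W/sh tumor 2 had 460 CPM of the mast cell protease Cpa3, the highest of all 17, so the Kit-W/sh stage results for the genes named below, and the genotype results of the 3 genes, were also computed without it and are given where the call changed or the value moved. Epcam, the epithelial marker, was at 22170 to 34600 CPM in all libraries. The labels do not say that all samples of a group were separate mice, and the deposited names of Kit-B6 tumors 4 and 5 share a stem, so the p-values speak only of the spread among these libraries, which may be technical.

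H2-Aa was lower in tumors than in preneoplastic colon of both genotypes. Preneoplastic levels were 11590, 8140 and 3790 CPM for Kit-B6 samples 1 to 3, while Kit-W/sh samples 1 and 2 had 11230 and 14200 CPM. Kit-B6 tumors ranged from 788 to 4155 CPM with a mean of 2208 ± 1258 (SD, n = 6), and Kit-W/sh tumors from 2427 to 4461 CPM with a mean of 3132 ± 696 (SD, n = 6). Every Kit-W/sh tumor lay below both Kit-W/sh preneoplastic samples, whereas Kit-B6 preneoplastic sample 3 lay below Kit-B6 tumor 2. The group means stood in the order Kit-W/sh preneoplastic (12710 ± 2097, n = 2), Kit-B6 preneoplastic (7839 ± 3908, n = 3), Kit-W/sh tumor and Kit-B6 tumor. Each pair of neighbours in that order overlapped.

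H2-Aa fell by 1.83 ± 0.40 on the log2 scale (SE) in Kit-B6 (edgeR adjusted p = 0.00217) and by 2.02 ± 0.44 in Kit-W/sh (adjusted p = 0.00254). All 6 tumors of each genotype were below the median of their preneoplastic group. These calls stand against a background in which 18.9% of 869 genes were called lower in Kit-B6 tumors and 18.8% in Kit-W/sh tumors (22.2% and 20.9% higher). Groups did not overlap for 29.3% and 58.2% of genes, 51.8% and 49.4% had an unadjusted p under 0.05, and DESeq2 called 42.6% and 41.8%. Both falls were called in every alternative tried, at -2.156 to -1.396 in Kit-B6 and -2.177 to -1.387 in Kit-W/sh. In bulk tissue, fewer cells that make a transcript and less of it per cell cannot be told apart, and stage is tied to age, doses and tissue.

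**Figure D1:**
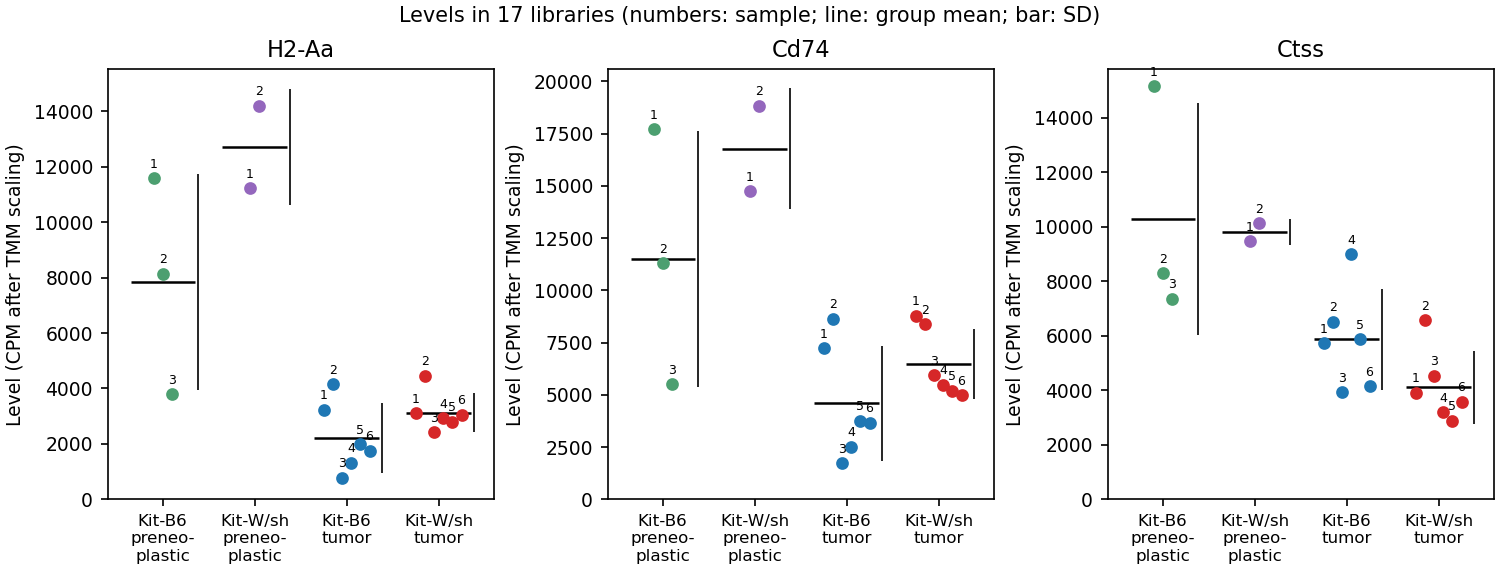
Levels of H2-Aa, Cd74 and Ctss in CPM on the vertical axis for the 4 groups, with 1 numbered point per library, a line at the group mean and a bar for the SD. Tumors of both genotypes average lower than preneoplastic colon for all 3 genes, and Kit-B6 preneoplastic sample 3 lies within the tumor range for H2-Aa (3790 CPM) and Cd74 (5499 CPM).

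Cd74 followed H2-Aa with a smaller difference. Kit-B6 preneoplastic samples had 17710, 11300 and 5499 CPM, and the Kit-W/sh pair had 14730 and 18830 CPM. Tumors ranged from 1729 to 8638 CPM in Kit-B6 (mean 4594 ± 2735, SD, n = 6) and from 4983 to 8786 CPM in Kit-W/sh (6460 ± 1677, n = 6). Kit-B6 preneoplastic sample 3 again lay inside the range of the tumors, and the Kit-W/sh groups did not overlap. Cd74 fell by 1.32 ± 0.42 in Kit-B6 (edgeR adjusted p = 0.0199) and by 1.38 ± 0.47 in Kit-W/sh (adjusted p = 0.0297). The Kit-B6 call ended without preneoplastic sample 1 (-0.83 ± 0.47, adjusted p = 0.175) or 2 (-1.33 ± 0.50, adjusted p = 0.0529), and both calls ended with unscaled totals or with scaling on reference genes. The Kit-W/sh call ended without either preneoplastic sample or without tumor 5 or 6.

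Ctss levels before tumors formed were 15170, 8299 and 7371 CPM for Kit-B6 and 9482 and 10140 CPM for Kit-W/sh. Kit-B6 tumors 1 to 6 had 5729, 6524, 3934, 9004, 5873 and 4155 CPM, and Kit-W/sh tumors 1 to 6 had 3920, 6580, 4542, 3204, 2884 and 3588 CPM. Kit-B6 tumor 4 had the highest Ctss of all tumors and the second lowest H2-Aa (1326 CPM) of its group. Ctss fell by 0.81 ± 0.29 in Kit-B6 (edgeR adjusted p = 0.0341) and by 1.25 ± 0.32 in Kit-W/sh (adjusted p = 0.00678). The Kit-B6 call rested on sample 1, without which the difference was -0.39 ± 0.31 (adjusted p = 0.33), and it also ended without any 1 of tumors 1, 3, 5 and 6. In Kit-W/sh the call ended without either preneoplastic sample (adjusted p = 0.0512 and 0.0627).

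Without the library labelled Kit-W/sh tumor 2, the Kit-W/sh differences were -2.15 ± 0.46 for H2-Aa, -1.46 ± 0.49 for Cd74 and -1.43 ± 0.30 for Ctss, all still called (edgeR adjusted p = 0.0022, 0.0278 and 0.00193). No difference between the stage effects of the 2 genotypes passed the interaction test, at -0.19 ± 0.63 for H2-Aa (edgeR adjusted p = 0.959), -0.05 ± 0.66 for Cd74 (adjusted p = 0.996) and -0.44 ± 0.45 for Ctss (adjusted p = 0.854). This test called 0 of 869 genes by edgeR and 1 by DESeq2, (0.104%), with 63 (7.25%) at an unadjusted p under 0.05. Without the library labelled Kit-W/sh tumor 2 the interactions were -0.32 ± 0.64, -0.14 ± 0.68 and -0.63 ± 0.41.

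Of the other 11 measured genes of the pathway, 4 fell and 1 rose in Kit-B6 tumors and 2 fell and 1 rose in Kit-W/sh tumors, where 41.1% and 39.7% of all genes were called in either direction. Their median log2 difference was -1.125 in Kit-B6 and -0.748 in Kit-W/sh, beside -0.003 and 0.081 over all genes tested. With the 3 members, 7 of 14 fell and 1 rose in Kit-B6, and 5 fell and 1 rose in Kit-W/sh. Without Kit-B6 preneoplastic sample 2 the count in Kit-B6 was 3 lower and 1 higher, without Kit-B6 tumor 4 it was 8 and 1, and without the library labelled Kit-W/sh tumor 2 the count in Kit-W/sh was 6 and 1.

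Among the chains, H2-Ab1, which makes the beta partner of H2-Aa, fell by 1.38 ± 0.36 in Kit-B6 (edgeR adjusted p = 0.00631) and by 1.41 ± 0.40 in Kit-W/sh (adjusted p = 0.0117). The Kit-B6 call of H2-Ab1 ended with scaling on Rpl13a and Tfrc (adjusted p = 0.13) and without preneoplastic sample 1 (0.0569), and the Kit-W/sh call with that scaling (0.107), with the replicate block (0.0633) and without preneoplastic sample 2 (0.111). H2-Eb1, the beta chain of I-E, went from 2648 ± 721 CPM (SD, n = 3) to 1214 ± 553 CPM (n = 6) in Kit-B6, a fall of 1.13 ± 0.31 (adjusted p = 0.0099) that did not pass without preneoplastic sample 2 (0.0699), with unscaled totals (0.0532) or on Rpl13a and Tfrc (0.22). In Kit-W/sh its difference of -0.67 ± 0.36 did not pass (adjusted p = 0.149), and the interaction was 0.45 ± 0.50 (adjusted p = 0.859). A fit of the 2 Kit-W/sh groups alone called H2-Eb1 lower in tumors (-0.68 ± 0.18, edgeR adjusted p = 0.0117). C57BL/6 mice make no I-E alpha chain, so their H2-Eb1 transcript has no surface I-E partner.

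The endosomal enzymes split. Legumain (Lgmn), an asparaginyl protease of endosomes that acts on antigens, had 1034, 969 and 1130 CPM in Kit-B6 preneoplastic colon and 1470 to 5271 CPM in tumors. The Kit-W/sh values were 897 and 1021 CPM before and 1920 to 3405 CPM in tumors. The groups did not overlap in either genotype, and the rises were 1.75 ± 0.32 (edgeR adjusted p = 5.87e-04) and 1.52 ± 0.37 (adjusted p = 0.0052). Without Kit-W/sh preneoplastic sample 1 the latter was 1.43 ± 0.52 (adjusted p = 0.0757). Cathepsin L (Ctsl), which cuts Cd74 in thymic epithelium, differed by 0.38 ± 0.29 and 0.51 ± 0.34 and did not pass. A fit of the 2 Kit-W/sh groups alone called Ctsl higher in tumors (0.50 ± 0.17, edgeR adjusted p = 0.0367). Ifi30, the interferon-induced thiol reductase that unfolds antigens, fell by 0.75 ± 0.25 in Kit-W/sh (adjusted p = 0.0262), and its Kit-B6 difference of -0.50 ± 0.22 did not pass (adjusted p = 0.0747). Both calls of Ifi30 moved with the settings. The Kit-W/sh call ended without either preneoplastic sample, with unscaled totals, on Rpl13a and Tfrc, on the last-listed genes and with the replicate block (adjusted p = 0.0538 to 0.227). The Kit-B6 difference passed without tumor 4 (-0.66 ± 0.19, adjusted p = 0.00967), with tumors 4 and 5 added together (0.0192) and with upper-quartile scaling (0.0488).

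Ciita, the coactivator of class II genes, was at 119, 241 and 113 CPM in Kit-B6 preneoplastic colon and at 22.8 to 191 CPM in tumors. In Kit-W/sh it was at 244 and 238 CPM against 52.2 to 136 CPM in tumors, with no overlap. Its differences of -1.32 ± 0.55 and -1.54 ± 0.61 did not pass with edgeR (adjusted p = 0.0641 and 0.0525), while DESeq2 gave adjusted p = 0.045 and 0.0409. With edgeR, Ciita fell without Kit-B6 tumor 2 (-2.04 ± 0.40, adjusted p = 9.06e-04) and without the library labelled Kit-W/sh tumor 2 (-1.65 ± 0.64, adjusted p = 0.0483). It also fell in a fit of the 2 Kit-W/sh groups alone (-1.550 ± 0.375, edgeR adjusted p = 0.00873). Rfxap, a subunit of the RFX complex on the X box, differed by -0.12 ± 0.20 in Kit-B6 and 0.13 ± 0.24 in Kit-W/sh. H2-DMa, a chain of the peptide exchange factor, had 2.10 to 26.1 CPM and no called difference.

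**Figure D2:**
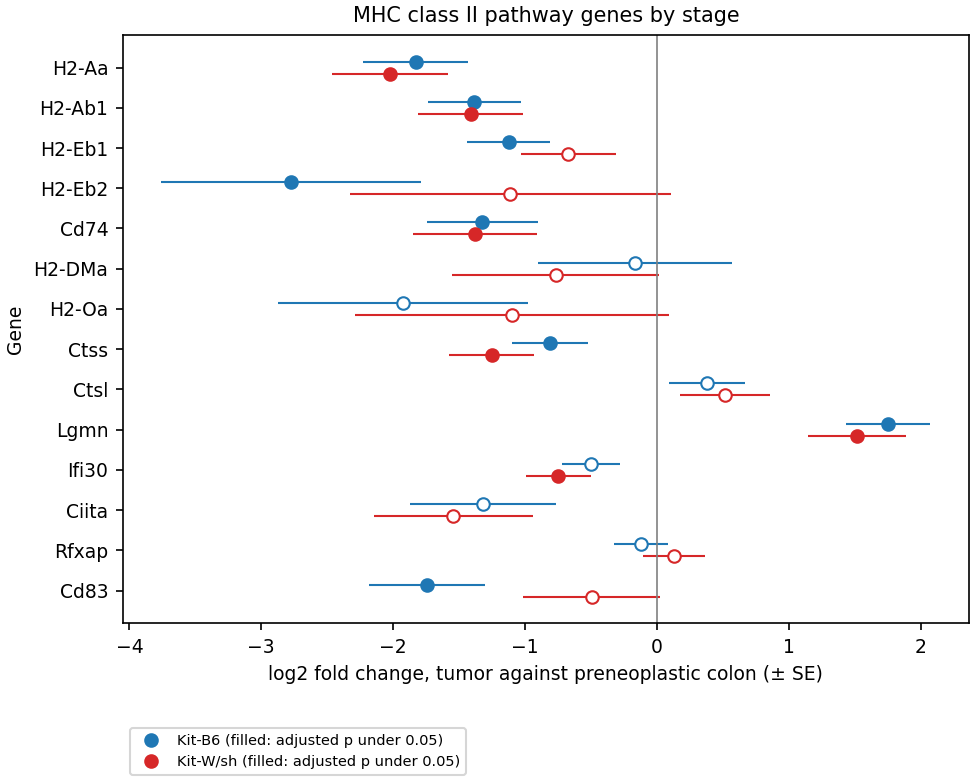
The log2 fold change of tumor against preneoplastic colon on the horizontal axis, with SE bars, for 14 MHC class II pathway genes in Kit-B6 (blue) and Kit-W/sh (red), filled where the adjusted p was under 0.05. H2-Aa, H2-Ab1, Cd74 and Ctss lie on the lower side in both genotypes with filled points, and Lgmn lies on the higher side.

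H2-Eb2, H2-Oa and Cd83 were highest in Kit-B6 preneoplastic sample 2, whereas H2-Aa was highest in Kit-W/sh preneoplastic sample 2. Among Kit-B6 tumors, number 2 had the most of all 4. H2-Eb2, a second beta chain gene, had 31.2, 319 and 146 CPM in Kit-B6 preneoplastic samples 1 to 3. Kit-B6 tumor 2 had 123 CPM of it, and the remaining 5 tumors of that genotype no more than 7.36 CPM. H2-Oa, a chain of the B cell inhibitor of H2-DM, was at 18.3, 176 and 69.8 CPM in the same preneoplastic samples and at 105 CPM in Kit-B6 tumor 2. H2-Eb2 fell by 2.77 ± 0.99 in Kit-B6 (edgeR adjusted p = 0.0331) and Cd83, which keeps class II molecules on the surface of activated cells, by 1.74 ± 0.44 (adjusted p = 0.00534). Without preneoplastic sample 2 neither passed (-1.83 ± 1.11 and -1.11 ± 0.46, adjusted p = 0.213 and 0.0781). The H2-Eb2 call also ended without preneoplastic sample 3 or tumor 1, 3, 5 or 6 and under 5 other settings (adjusted p = 0.0538 to 0.106). H2-Oa differed by -1.93 ± 0.95 and did not pass (adjusted p = 0.111). It passed without Kit-B6 tumor 2 (-3.545 ± 0.736, edgeR adjusted p = 0.00149). Without that tumor and preneoplastic sample 2 together it also passed (-2.56 ± 0.75, edgeR adjusted p = 0.0168).

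Of B cell genes 10 were measured, and 5 of 9 tested fell in Kit-B6 tumors and 0 of 9 in Kit-W/sh tumors, where all 9 differences were negative, beside 18.9% and 18.8% of all genes called lower. Ms4a1 (CD20), a defining B cell marker, had 29.3, 1130 and 341 CPM in Kit-B6 preneoplastic samples 1 to 3 and 79.6 and 24.8 CPM in the Kit-W/sh pair. Among tumors, Kit-B6 tumor 2 had 247 CPM of Ms4a1 and the remaining 11 no more than 20.8 CPM. Sample 1 of Kit-B6 thus had the lowest Ms4a1 and the highest H2-Aa of its group. The 10 genes summed to 1866 to 4589 CPM in preneoplastic colon of Kit-B6 mice and 1723 to 1796 CPM in that of Kit-W/sh mice, and tumors had 1207 to 2885 and 645 to 1676 CPM. The B cell receptor chain gene Cd79a was at 0 in 7 libraries. Much of that sum was Blnk, an adaptor, at averages of 1214 to 1631 CPM in the 4 groups. Without Kit-B6 tumor 2 and preneoplastic sample 2, which had the most Ms4a1 of their groups, H2-Aa differed by -2.08 (edgeR adjusted p = 0.00238). Preneoplastic sample 3, with 341 CPM of Ms4a1, stayed in that fit, so B cell content was not made equal. The part of B cells in the H2-Aa difference was not tested. Without preneoplastic sample 2 alone, 0 B cell genes passed.

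**Figure D3:**
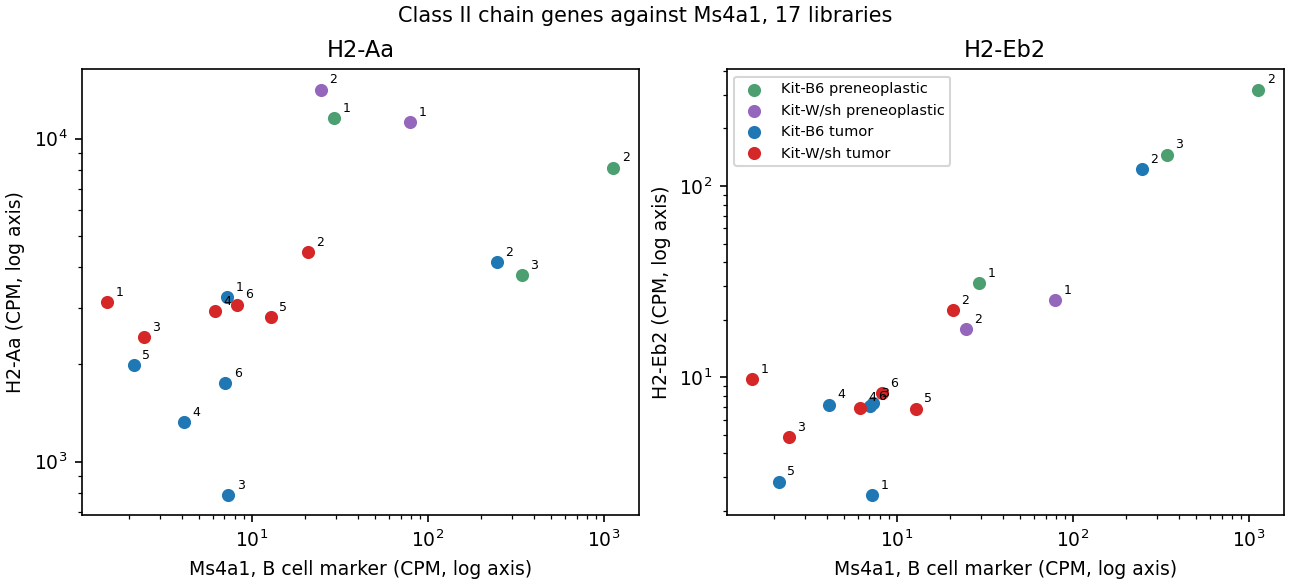
H2-Aa (left) and H2-Eb2 (right) in CPM against Ms4a1 in CPM, both on log axes, with 1 numbered point per library. H2-Eb2 is highest in the 3 libraries with the most Ms4a1 (Kit-B6 preneoplastic samples 2 and 3 and Kit-B6 tumor 2), while the highest H2-Aa (14200 CPM) is in a library with 24.8 CPM of Ms4a1.

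Of 10 tested monocyte and macrophage genes, 5 rose and 1 fell in Kit-B6 tumors and 8 rose and 1 fell in Kit-W/sh tumors, where 22.2% and 20.9% of all genes were called higher. Without Kit-B6 preneoplastic sample 2 the count was 4 and 0, without Kit-B6 tumor 4 it was 7 and 1, and without the library labelled Kit-W/sh tumor 2 it was 7 and 1. Itgam, an integrin chain of myeloid cells, rose by 2.11 ± 0.39 and 3.43 ± 0.51 (edgeR adjusted p = 6.10e-04 and 1.84e-04), and Cd68 by 1.11 ± 0.41 and 1.46 ± 0.50 (adjusted p = 0.0399 and 0.0283). Cd163, a macrophage scavenger receptor, fell by 2.45 ± 0.94 and 3.22 ± 1.11 (adjusted p = 0.0458 and 0.0309). Without Kit-B6 preneoplastic sample 2, Cd68 and Cd163 did not pass in Kit-B6 (adjusted p = 0.102 and 0.0541). Without the library labelled Kit-W/sh tumor 2, Cd163 differed by -4.16 ± 1.14 in Kit-W/sh (adjusted p = 0.00984). The macrophage receptor Marco had 0 counts in all 17 libraries. Their summed level was 1426 to 1790 CPM in preneoplastic colon and 1718 to 4974 CPM in tumors, and its part in the levels of the 3 genes was not tested. Of 5 tested dendritic cell genes, Cd1d1 rose in both genotypes (1.38 ± 0.34 and 1.03 ± 0.38, adjusted p = 0.0043 and 0.0416) and Ly75, an endocytic receptor of dendritic and epithelial cells, differed by -1.401 ± 0.431 in Kit-W/sh and fell (adjusted p = 0.0179).

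Of 13 tested genes of interferon gamma signalling, 4 fell and 1 rose in Kit-B6 tumors and 4 fell in Kit-W/sh tumors. In either direction the share was no higher than the 41.1% and 39.7% called among all genes. The falls alone stand beside 18.9% and 18.8% of all genes called lower. Medians were -0.542 and -1.002 beside -0.003 and 0.081 over all genes. Without Kit-B6 preneoplastic sample 2, 2 fell and 0 rose, and without the library labelled Kit-W/sh tumor 2, 6 fell. Irf1, which acts on the Ciita gene after interferon gamma, had preneoplastic levels of 2416, 2454 and 2835 CPM (Kit-B6) and 3655 and 4065 CPM (Kit-W/sh). It fell by 1.28 ± 0.22 and 1.77 ± 0.25 in tumors (edgeR adjusted p = 4.19e-04 and 1.36e-04). Ifngr1, a receptor chain, fell by 0.69 ± 0.19 and 1.00 ± 0.21 (adjusted p = 0.00952 and 0.0022). Ifngr2, the other chain, went the other way, with means of 1902 CPM before and 2726 CPM in tumors of Kit-B6 mice. In Kit-W/sh mice the means were 1922 and 2305 CPM. Without Kit-B6 tumor 4, Ifngr2 rose by 0.44 ± 0.15 in Kit-B6 (edgeR adjusted p = 0.0245). Without Kit-B6 preneoplastic sample 2 it did not pass (0.40 ± 0.17, edgeR adjusted p = 0.0903). The cytokine itself, Ifng, gave 33 counts over all libraries and 0 in 6 of them, too few for a comparison. Cd4 and Lag3, the T cell receptors for class II molecules, fell in Kit-B6 tumors by 1.32 ± 0.41 and 1.65 ± 0.52 (adjusted p = 0.0185 and 0.0189), and neither passed in Kit-W/sh. Without Kit-B6 preneoplastic sample 2 neither passed in Kit-B6.

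Between genotypes, none of the 3 genes differed beyond the spread at either stage. In tumors the difference of Kit-W/sh from Kit-B6 was 0.49 ± 0.34 on the log2 scale for H2-Aa (edgeR adjusted p = 0.551), 0.48 ± 0.35 for Cd74 (adjusted p = 0.588) and -0.52 ± 0.25 for Ctss (adjusted p = 0.376). Without the library labelled Kit-W/sh tumor 2 these were 0.35 ± 0.34, 0.38 ± 0.37 and -0.71 ± 0.22 (adjusted p = 0.609, 0.609 and 0.113). edgeR called 0 of 799 genes there (109, or 13.6%, at an unadjusted p under 0.05) and DESeq2 27 (3.35%), at adjusted p = 0.521, 0.556 and 0.235 for the 3 genes. Among the other pathway genes tested, 0 of 8 passed. In preneoplastic colon the differences were 0.67 ± 0.44, 0.52 ± 0.46 and -0.09 ± 0.34 (adjusted p = 0.603, 0.712 and 0.944), and edgeR called 1 of 777 genes (0.129%), which was not in the pathway. There 10.7% had an unadjusted p under 0.05, 29.7% did not overlap and DESeq2 called 21 (3.35%). H2-Eb2 differed by -2.96 ± 0.98 without passing over all genes (edgeR adjusted p = 0.406), and DESeq2 gave adjusted p = 0.0211.

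H2-Aa varied more among Kit-B6 than among Kit-W/sh tumors. Its highest and lowest levels stood 5.27-fold apart in Kit-B6 and 1.84-fold in Kit-W/sh tumors, and those of Cd74 4.99-fold and 1.76-fold. For Ctss the ranges were alike, at 2.29-fold and 2.28-fold. Wider spread among Kit-B6 tumors was not particular to these genes. The SD was 269 against 53.3 CPM for Jak1 and 213 against 50.9 CPM for Fcgr3 (Kit-B6 against Kit-W/sh tumors). For Rfxap it went the other way, at 62.5 against 204 CPM. The share of all genes with the wider spread in Kit-B6 was not counted, and the difference in spread was not tested.

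The ratio of 2 genes within a library does not depend on the scaling, and 12 such comparisons were made (3 ratios, 4 contrasts). The ratios were chosen after their values were seen, so their p-values describe these libraries and do not test a prior question. The log2 ratio of H2-Aa to Ctss counts was -0.82, -0.65, -2.32, -2.76, -1.56 and -1.25 for tumors 1 to 6 of Kit-B6 mice. For tumors of Kit-W/sh mice, 1 to 6, it was -0.33, -0.56, -0.90, -0.13, -0.04 and -0.23. Only Kit-W/sh tumor 3 lay within the Kit-B6 range. The mean was higher by 1.19 in Kit-W/sh (-0.37 ± 0.32 against -1.56 ± 0.84, SD, two-sided exact permutation p = 0.00649, adjusted over 12 p = 0.0476, n = 6 and 6). For Cd74 to Ctss it was higher by 1.18 (exact permutation p = 0.00866, adjusted p = 0.0476), and for H2-Aa to Cd74 the difference was 0.01 (exact permutation p = 0.887). Without the library labelled Kit-W/sh tumor 2 the first 2 differences were 1.23 and 1.25 (exact permutation p = 0.0152 and 0.013, not adjusted). Without Kit-B6 tumor 4 they were 0.95 and 0.92 (exact permutation p = 0.0108 and 0.00866, not adjusted). The deposited name of that tumor shares a stem with another, and ratios with those 2 added together were not run. The ratio of H2-Aa to Ctss joins 2 differences of opposite sign, of which neither passed alone.

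By stage, the log2 ratio of H2-Aa to Cd74 was -0.61, -0.47 and -0.54 in Kit-B6 preneoplastic colon and between -1.16 and -0.92 in Kit-B6 tumors. The means differed by -0.50 without overlap (exact permutation p = 0.0119, the smallest that 6 against 3 samples allow, adjusted p = 0.0476). Without Kit-B6 tumor 4 the difference was -0.53 (exact permutation p = 0.0179, not adjusted). This ratio too was chosen after its values were seen. In Kit-W/sh it went from -0.39 and -0.41 to between -1.50 and -0.70 (difference -0.63, exact permutation p = 0.0714, adjusted p = 0.167). The transcript of the chain was thus lower in tumors relative to that of the invariant chain in all 12 tumors.

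**Figure D4:**
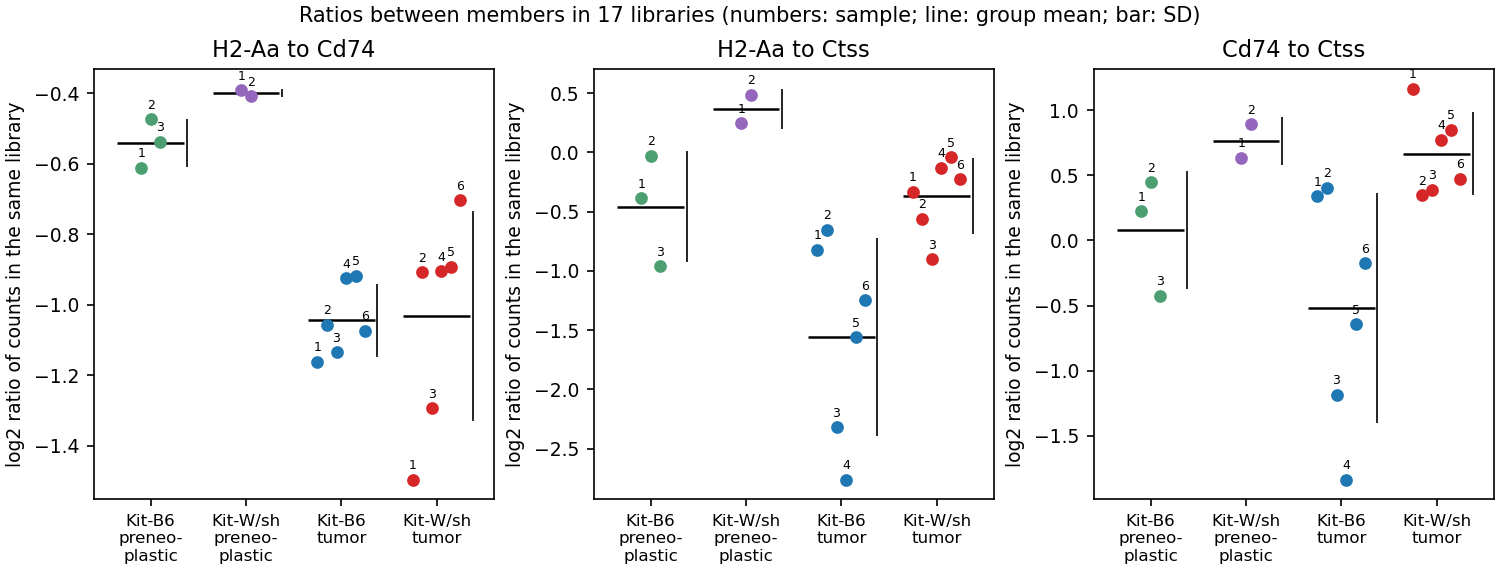
The log2 ratio of counts for H2-Aa to Cd74, H2-Aa to Ctss and Cd74 to Ctss on the vertical axis by group, with 1 numbered point per library, a line at the mean and a bar for the SD. The ratio of H2-Aa to Cd74 separates the stages in both genotypes, and the 2 ratios to Ctss average higher in tumors of Kit-W/sh mice than in those of Kit-B6 mice.

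Among the 12 tumors, H2-Aa and Cd74 varied together after removal of genotype means of log2(CPM + 1). Pearson's r was 0.94 and Spearman's rho 0.86 (permutation p = 4.00e-05 and 6.80e-04, adjusted over 15 relations p = 6.00e-04 and 0.0102), and r was 0.86 without the 2 tumors farthest from the median H2-Aa. Within genotypes r was 0.99 in Kit-B6 (exact permutation p = 0.00139, n = 6) and 0.60 in Kit-W/sh (exact permutation p = 0.232, n = 6). Ctss gave r = 0.37 with H2-Aa (rho 0.43, permutation p = 0.24 and 0.16) and 0.34 with Cd74 (rho 0.48, permutation p = 0.278 and 0.114), with adjusted p = 0.341 for r and 0.24 for rho in both, and r was 0.09 and 0.08 without the 2 farthest tumors. Without Kit-B6 tumor 4, which had the highest Ctss of all tumors, these r were 0.65 and 0.66 (adjusted permutation p = 0.054 and 0.0539).

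Each marker list was taken as the mean log2 level of its measured genes, all weighing equally. Of 16 listed dendritic cell genes only 7 were measured: Irf4, Ccr7, Lamp3, Ly75, Cd1d1, Ccl22 and Ccl17. Itgax, Flt3 and Zbtb46 were not among them, and Ccl22 and Lamp3 had 8 and 22 counts over all libraries. Against the lists, H2-Aa gave r = 0.81 with the dendritic cell genes (rho 0.78, permutation p = 0.0035 and 0.0038, adjusted p = 0.0131 and 0.0205) and 0.78 with the T cell genes (rho 0.77, permutation p = 0.00295 and 0.00497, adjusted p = 0.0131 and 0.0205). Within Kit-B6 and Kit-W/sh tumors these were 0.83 and 0.58 for dendritic cell genes (exact permutation p = 0.0361 and 0.213) and 0.87 and 0.83 for T cell genes (exact permutation p = 0.0319 and 0.11). Without the 2 farthest tumors r was 0.67 and 0.64 (permutation p = 0.0403 and 0.0547), and the relation to T cell genes no longer passed with 10 tumors. With B cell genes H2-Aa gave r = 0.63 but rho = 0.22 (permutation p = 0.0414 and 0.499, adjusted p = 0.103 and 0.535), and r fell to 0.37 without the 2 farthest tumors. For Cd74 the corresponding r was 0.79, 0.72 and 0.54 (rho 0.75, 0.76 and 0.12, adjusted permutation p of r 0.0131, 0.0268 and 0.162 and of rho 0.0205, 0.0205 and 0.716), and 0.62, 0.51 and 0.13 without the 2 farthest tumors (permutation p = 0.0563, 0.129 and 0.722). With monocyte and macrophage genes H2-Aa gave r = 0.33 (rho 0.455, permutation p = 0.296 and 0.139, adjusted p = 0.341 and 0.24) and Cd74 0.34 (rho 0.40, permutation p = 0.283 and 0.198, adjusted p = 0.341 and 0.269). Without the 2 farthest tumors these r were higher, at 0.71 and 0.63 (permutation p = 0.0243 and 0.0507), and without Kit-B6 tumor 4 lower, at 0.17 and 0.12.

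For Ctss no list passed, and all 4 values were higher without Kit-B6 tumor 4. With B cell and dendritic cell genes r was 0.34 and 0.18 (rho 0.27 and 0.45, adjusted permutation p of r 0.341 and 0.614 and of rho 0.469 and 0.24), and 0.53 and 0.65 without that tumor (adjusted permutation p = 0.121 and 0.0539). Its r with T cell genes was 0.50 (rho 0.53, permutation p = 0.0953 and 0.0794, adjusted p = 0.179 and 0.198) and 0.88 without that tumor (adjusted permutation p = 0.00188). With monocyte and macrophage genes r was -0.13 (rho 0.27, permutation p = 0.686 and 0.405, adjusted p = 0.686 and 0.469) and 0.63 without it (adjusted permutation p = 0.057). Within Kit-W/sh tumors alone Ctss gave r = 0.91 with monocyte and macrophage genes and 0.94 with T cell genes (exact permutation p = 0.0111 and 0.00556, n = 6), against -0.50 and 0.09 in Kit-B6 tumors (exact permutation p = 0.306 and 0.856). Without the library labelled Kit-W/sh tumor 2, which had the highest Ctss of its group, r over the other 11 tumors was -0.35 and 0.18 (adjusted permutation p = 0.53 and 0.697), and 5 tumors are too few for a value within Kit-W/sh. The difference between genotypes in these relations was not tested.

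Of 798 other tested genes, those most like H2-Aa across the 12 tumors by the same measure of Pearson's r were H2-Ab1 (0.95), Cd74 (0.94), Il21r (0.93), H2-Eb1 (0.92) and Cd3d (0.87). For Cd74 they were H2-Ab1 (0.97), H2-Aa (0.94), H2-Eb1 (0.92), Cd72 (0.90) and Il21r (0.86). Ctss had none of these among its 5, which were Cat (0.86), Acpp (0.85), Ctsw (0.84), Kbtbd11 (0.83) and Casp1 (0.82).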

How the data were processed

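Libraries of total RNA from frozen tissue came from a QIAseq targeted panel of mouse immune and tumor genes and were read on a MiSeq instrument, as the labels' protocols and design text state. The authors deposited whole-number counts per gene, 1 table per sample. The submitters' processing notes name mm9 and DESeq2 without a role or version. The counter and any use of molecular tags are not given in sources used here. Each table had 993 entries, 988 genes and 5 control amplicons with 0 counts, which were left out. Amplicons of near-identical H2 genes can share reads. Groups and sample numbers came from the titles. No pair of libraries in a group agreed within counting noise (lowest chi-square per degree of freedom 13.03).

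Counts were tested with edgeR 4.0.16 in R 4.3.3 (TMM scaling, genes kept by filterByExpr at minimums of 10 counts and 15 in total, robust quasi-likelihood F test, Benjamini-Hochberg over all genes tested, threshold 0.05). Genotype was fitted within a stage, and stage and interaction in all 17 libraries. DESeq2 1.42.0, other scalings, no filter, left-out libraries and a replicate block were alternatives. Levels are CPM after TMM scaling over 17 libraries. Correlations used 100000 resamples (exact for n = 6) and ratios exact permutation tests. The fits were tested on simulated counts. Genes, lists and tests were chosen with earlier results of these data known. Named were the 3 genes, the measured pathway genes, some of the list members past the threshold or most abundant, and the 5 genes most like each member. Other list members past the threshold were counted but not named with their tests. Of the other genes, Kit, Cpa3 and those shown for contrast were chosen after their values were seen, as were the ratios and the values of listed genes, counts and correlations without 1 named library.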

Additional observations from a re-analysis of the deposited data

Results flagged for a closer look

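In 34 groups of 6 tumors (14 pathway genes and 3 ratios, 2 genotypes), 6 had a highest value that stood far from the other 5. The cutoff is one that about 1 in 20 groups of normally spread values would pass. CPM values need not be spread so, and the genes share libraries, so the 6 cannot be set against that rate. The library labelled Kit-W/sh tumor 2 had 4461 CPM of H2-Aa and 22.4 CPM of H2-Eb2. Kit-B6 tumor 2 stood apart for H2-Eb2 (123 CPM), H2-Oa (105 CPM) and Ciita (191 CPM). H2-DMa was at 26.1 CPM in Kit-W/sh tumor 3.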

How the results depend on the processing

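Depth did not limit the 3 genes, but H2-DMa, H2-Oa and H2-Eb2 had few counts (3 counts are 2.14 to 4.87 CPM unscaled), and the 2 to 3 preneoplastic samples limit every stage result. Replicate numbers did not pair the samples: same-numbered tumors of the 2 genotypes had correlations of -0.20 to 0.39, and 3 of 6 Kit-B6 tumors matched their own number best. Unscaled totals moved the median of all genes from -0.003 to 0.244 (Kit-B6 stage) and from 0.081 to 0.335 (Kit-W/sh stage), and the percentage of higher genes among those called from 54.1% to 73% and from 52.8% to 70.1%. With Rpl13a and Tfrc the medians were 0.181 and 0.234 (66.1% and 61.1% higher), and with the 9 last-listed genes 0.079 and 0.311 (62.6% and 70% higher). Below, values are log2 differences, and the cause of a change was not tested.

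Kit-B6 stage calls were lost for Cd74 and Ctss with unscaled totals (-1.011 and -0.550), with Rpl13a and Tfrc (-0.939 and -0.631), with the 9 last-listed genes, chosen after seeing the data (-1.17 and -0.71), and in a fit of the 2 groups alone (-1.33 and -0.82), and for Ctss with the replicate block (-0.71). Kit-W/sh stage calls were lost for Cd74 with unscaled totals (-1.13), Rpl13a and Tfrc (-1.21), the last-listed genes (-1.15) and the replicate block (-0.65), and for Ctss with Rpl13a and Tfrc (-1.050) and the replicate block (-0.999). Leaving out 1 library gave -1.656 to -0.833 (Cd74) and -0.996 to -0.388 (Ctss) in Kit-B6, and -1.54 to -1.19 and -1.43 to -1.17 in Kit-W/sh. The lone sample left in an arm is then assumed to vary like the other groups.

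Called genes were 27 by DESeq2 against 0 between tumors, and 1 against 0 for the interaction (0 to 2 without 1 library). In preneoplastic colon they were 21 by DESeq2 and 0 with unscaled totals, last-listed genes, the replicate block or all 17 libraries, against 1 (0 to 16 without 1 library, the 16 without Kit-B6 sample 1). In Kit-W/sh by stage they were 180 with Rpl13a and Tfrc against 345 (132 to 367 without 1 library, the 132 without Kit-W/sh preneoplastic sample 1).

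Differences that were not called changed sign as follows. The interaction of Cd74 was 0.024 with last-listed genes and 0.43 with the replicate block, that of H2-Aa 0.34 and that of H2-Ab1 0.41 with the block (0.067 with last-listed genes), and that of Ciita 0.29 with the block. Leaving out 1 library gave interactions of -0.64 to 0.14 (H2-Aa), -0.55 to 0.28 (Cd74), -0.38 to 0.26 (H2-Ab1), -0.69 to 0.50 (Ciita), -0.27 to 0.32 (Ctsl) and -0.21 to 2.45 (H2-Oa, with a changed sign without Kit-B6 preneoplastic sample 2). Between tumors Ctsl was 0.028 with unscaled totals, 0.064 with the block and 0.017 with Kit-B6 tumors 4 and 5 added together (-0.17 to 0.14 without 1 library), and Cd83 -0.35 to 0.047. In preneoplastic colon Ctss was -0.31 to 0.30 (the latter without Kit-B6 sample 1), Ctsl -0.36 to 0.21 and H2-Eb1 -0.11 to 0.32 without 1 library, and H2-Eb1 -0.063 with last-listed genes and -0.073 with the block. By stage in Kit-B6, H2-DMa was 0.11, 0.10 and 0.37 and Rfxap 0.125 and 0.058 (unscaled, Rpl13a and Tfrc, and for H2-DMa the block), and H2-DMa -0.633 to 0.042 without 1 library. In Kit-W/sh Rfxap was -0.076 with the block and -0.009 to 0.30 without 1 library.

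Between tumors the log2 ratio of H2-Aa to Cd74 differed by -0.055 to 0.104 without 1 library, and by stage in Kit-W/sh by -0.70 to -0.54 (H2-Aa to Ctss -0.80 to -0.62). With log2(CPM + 10), dendritic cell genes gave r = 0.69 (H2-Aa) and 0.67 (Cd74) and T cell genes 0.67 (Cd74), each at adjusted permutation p = 0.0591. Without Kit-B6 tumor 4 or the library labelled Kit-W/sh tumor 2, r was 0.68 and 0.80 for Cd74 with T cell genes, 0.88 and 0.18 for Ctss with T cell genes, and 0.63 and -0.35 for Ctss with macrophage genes. Leaving out a Kit-W/sh preneoplastic sample was not run for ratios, as 1 sample would remain. H2-Aa kept its stage calls in all these settings and no comparison between genotypes called any of the 3 genes.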

Other observations

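Costimulatory genes, whose products presenting cells need beside class II molecules to activate T cells, moved in both directions. Of 5 tested, Icosl fell by 0.86 ± 0.24 and Tnfsf4 rose by 3.91 ± 1.05 in Kit-B6 tumors (edgeR adjusted p = 0.00911 and 0.00805). Tnfsf4 had 2 counts in all over the 3 Kit-B6 preneoplastic libraries (0 to 1.83 CPM), so the size of its rise is poorly fixed. Its levels in Kit-B6 tumors were 2.06 to 35.5 CPM. In Kit-W/sh tumors Cd80 rose by 1.70 ± 0.58 (adjusted p = 0.0283), from 18.1 and 12.4 CPM to 36.2 to 83.9 CPM, and no costimulatory gene fell. Of 13 T cell genes, 3 fell and 1 rose in Kit-B6 tumors and 1 fell and 1 rose in Kit-W/sh tumors. Among all genes, 41.1% and 39.7% were called in either direction. Of the 13 differences 12 and 10 were negative, with medians of -1.003 and -0.327 beside -0.003 and 0.081 over all genes. In both genotypes Trat1, a T cell receptor adaptor, fell (-6.79 ± 0.53 and -5.42 ± 0.52) and Zap70, a T cell receptor kinase, rose by 2.46 ± 0.49 and 2.69 ± 0.59 in Kit-B6 and Kit-W/sh tumors (adjusted p = 4.76e-07, 8.46e-06, 0.00104 and 0.00272). Lck, a T cell kinase, and Cd8a also fell in Kit-B6 (-1.18 ± 0.39 and -2.02 ± 0.77, edgeR adjusted p = 0.0232 and 0.0447), and neither passed without Kit-B6 preneoplastic sample 2, which left 1 gene lower. In Kit-W/sh, 3 T cell genes fell without the library labelled Kit-W/sh tumor 2, Cd8a among them (-3.15 ± 0.59, edgeR adjusted p = 8.61e-04). The colonocyte carbonic anhydrase Car4 fell (-3.71 ± 1.15 and -5.30 ± 1.26, adjusted p = 0.0176 and 0.0045, the latter -6.07 ± 1.32 without that library), while Epcam differed by 0.02 ± 0.16 and -0.08 ± 0.18.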
